A study of Mus musculus with 4 samples.

Results

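The genes described here encode the lysosome: its membrane proteins, its acid hydrolases, the proton pump that acidifies it, and the TFEB family of transcription factors. The list holds 55 genes, of which 54 were measured among the 22180 genes of the array table. Each gene was read from a probe set that carries its symbol alone, and where several did, from the probe set that was brightest on average. Tmem55b was matched through its gene identifier, as the platform lists it under its newer symbol Pip4p1. Glb1 shares its only probe set with Tmppe and was left out. The list was drawn up by function, with results of this comparison known. Cd68 in particular was known to stand among the genes with the greatest differences between the groups, so its values are a description without a test.

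The cells were Beta-TC-6, a line of mouse pancreatic beta cells, and RNA was read on Affymetrix Mouse Gene 2.1 ST arrays. Cells of the siNF90 group received a mixture of 3 RNA duplexes against NF90, a protein that binds double-stranded RNA, and cells of the siNTC group received a negative control siRNA. Both groups were transfected with the same lipid reagent, in DMEM with 25 mM glucose, 15% fetal bovine serum and antibiotics, and each has 2 arrays. The sources used here give neither the time after transfection nor whether the arrays of a group are separate cultures, so the spread between them may be technical. The depletion of NF90 itself was not analysed here, and siNF90 is used as the label of a group.

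Lysosomes digest proteins, glycans, nucleic acids and lipids with hydrolases that work at acid pH. A vacuolar ATPase pumps protons inward, and heavily glycosylated membrane proteins line the inner face of the membrane. TFEB, TFE3 and MITF bind E-boxes in the promoters of many lysosomal genes, a site often written CLEAR, and move to the nucleus when the nutrient-sensing kinase mTORC1 is inactive. In beta cells, lysosomes also degrade insulin granules that are not secreted.

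Values are log2 expression per probe set as the authors deposited them, and differences are siNF90 minus siNTC with the standard error of a limma fit over all 22180 genes. Across genes, which are not independent replicates, r was 0.9927 between the siNTC arrays and 0.9919 between the siNF90 arrays. All 13 beta cell markers measured, such as Ins2 and Pdx1, reached 1.845, the median level of all genes. A gene is called low here where both of its group means lie under that median, since the table holds no measure of background. Levels of different probe sets are not set against each other.

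Promoter sequence does not depend on the array values. RefSeq promoter windows (GRCm38.p6, 250 bases before to 50 bases after the start) were found for 47 of the 54 measured genes, which leaves Ctsh, Ctsb, Galns, Atp6v1b2, Npc1, Atp6v1h and Asah1. The E-box CACGTG, a palindrome that reads the same on both strands, was present in 17 of 47 (36.2%), against 8.09% of the 27025 genes with a window. The longer palindrome TCACGTGA, which contains the E-box, was present in 8 of 47 (17.0%), against 1.12% of all genes. Lamp1, Mcoln1 and Gla were among the genes with an E-box match, and of these Mcoln1 and Gla also held the longer palindrome. The windows of Cd68 and Neu1, the genes with the highest differences, held neither motif. No match says only that these letters are not in the window. The 250 bases before the start are shown for these 5 genes, 5′ to 3′ on the strand of the gene, with each CACGTG in capitals. They lie at chr11:69666171-69666420, minus strand (Cd68), chr17:34931003-34931252, plus strand (Neu1), chr8:13158911-13159160, plus strand (Lamp1), chr8:3500269-3500518, plus strand (Mcoln1) and chrX:134601006-134601255, minus strand (Gla).
Cd68: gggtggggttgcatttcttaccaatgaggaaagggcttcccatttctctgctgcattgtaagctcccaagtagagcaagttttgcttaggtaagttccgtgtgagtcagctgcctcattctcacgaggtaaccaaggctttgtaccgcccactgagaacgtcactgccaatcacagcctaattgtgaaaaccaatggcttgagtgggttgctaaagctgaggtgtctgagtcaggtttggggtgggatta
Neu1: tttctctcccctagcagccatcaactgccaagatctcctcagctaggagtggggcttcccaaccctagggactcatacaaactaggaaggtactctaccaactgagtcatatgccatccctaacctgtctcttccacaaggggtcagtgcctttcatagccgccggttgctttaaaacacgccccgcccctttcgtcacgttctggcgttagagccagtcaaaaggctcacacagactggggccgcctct
Lamp1: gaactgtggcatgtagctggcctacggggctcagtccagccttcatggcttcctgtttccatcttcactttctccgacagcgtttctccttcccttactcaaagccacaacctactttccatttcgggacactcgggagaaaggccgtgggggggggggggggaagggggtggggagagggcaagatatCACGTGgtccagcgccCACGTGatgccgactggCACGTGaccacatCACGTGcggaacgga
Mcoln1: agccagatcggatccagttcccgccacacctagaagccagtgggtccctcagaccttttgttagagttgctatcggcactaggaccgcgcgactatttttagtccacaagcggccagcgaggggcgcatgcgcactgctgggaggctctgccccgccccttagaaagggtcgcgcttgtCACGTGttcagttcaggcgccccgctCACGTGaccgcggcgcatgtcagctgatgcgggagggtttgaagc
Gla: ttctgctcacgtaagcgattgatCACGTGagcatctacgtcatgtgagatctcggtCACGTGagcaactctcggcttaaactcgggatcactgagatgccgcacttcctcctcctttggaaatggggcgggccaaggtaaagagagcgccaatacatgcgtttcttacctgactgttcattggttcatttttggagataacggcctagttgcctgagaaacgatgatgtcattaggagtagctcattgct
In Lamp1 the matches begin 61, 45, 28 and 15 bases before the start, in Mcoln1 71 and 45 bases before it, and in Gla 227 and 194 bases before it.

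The genes with an E-box match had a median difference of 0.115 and those without one 0.045. Of the 17 with a match, the siNF90 values exceeded the siNTC values on all arrays in 7 and lay under them in 3. Of the 30 without, these counts were 10 and 6. For the longer palindrome the order of the medians was reversed, with -0.0025 for the 8 genes with a match and 0.05 for the 39 without. The counts above and below were 3 and 2 of the 8, and 14 and 7 of the 39. Over all genes the shares were 21.9% and 17.9%, and among genes that reached the median level 26.3% and 21.8%. For both motifs the ranges of the genes with and without a match overlapped, and these sets were not tested against each other.

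**Figure D1:**
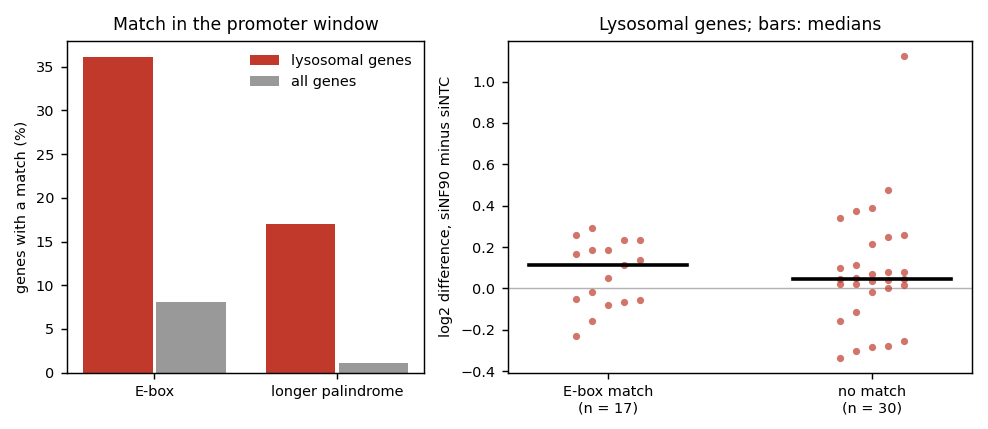
Left, the percentage of lysosomal genes (red, 47 with a promoter window) and of all 27025 genes (grey) whose window holds the E-box or the longer palindrome. Right, the log2 difference (siNF90 minus siNTC) of each lysosomal gene with (17) and without (30) an E-box match, with medians of 0.115 and 0.045 as bars; Cd68 is the highest point, without a match.

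Across the list the differences were small beside that of Cd68. Of the 54 genes, 35 had a difference above 0, 18 below 0, and Atp6v0a1 had 0, with a median of 0.0475 against 0.015 over all genes. Differences ran from -0.335 (Ctso) to 1.125 (Cd68), and without Cd68 the highest was 0.475 (Neu1). For 35 of the 54 the difference was within 0.2 of 0, while 13 lay above 0.2 and 6 below -0.2. Without Cd68, 12 of 53 lay above 0.2. Over all genes 14% lay below -0.2 and 17.8% above 0.2. Of the 11455 genes that reached the median level, 2446 (21.4%) lay above 0.2 and 1929 below -0.2. The 2 groups did not overlap in 28 genes, with siNF90 above in 19 (35.2%) and below in 9 (16.7%). Over all genes these shares were 21.9% and 17.9%, and among genes that reached the median level, as 50 of the 54 did, they were 26.3% and 21.8%.

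No lysosomal gene passed the test. Among the 53 other than Cd68, 0 had an adjusted p under 0.05 in limma (Benjamini-Hochberg over all genes, smallest adjusted p = 0.374 for Neu1), as did 0 of all 22180 genes. At an unadjusted p under 0.05 there were 3 with a higher value in siNF90 (Neu1, Tfe3 and Ctns) and 1 with a lower value (Ctso), where the shares over all genes were 5.87% and 4.41%. With a prior variance that depends on the level, limma gave 0 of the 53 at an adjusted p under 0.05, where 0.234% of all genes were higher and 0.221% lower, and Neu1 again had the smallest (adjusted p = 0.091). At an unadjusted p under 0.05 that prior gave 10 higher and 5 lower, against 6.78% and 5.46% of all genes. With any single array left out, the difference ran from 0.42 to 0.53 for Neu1 and from 0.345 to 0.435 for Tfe3. It ran from 0.28 to 0.4 for Ctns and from -0.4 to -0.27 for Ctso.

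**Figure D2:**
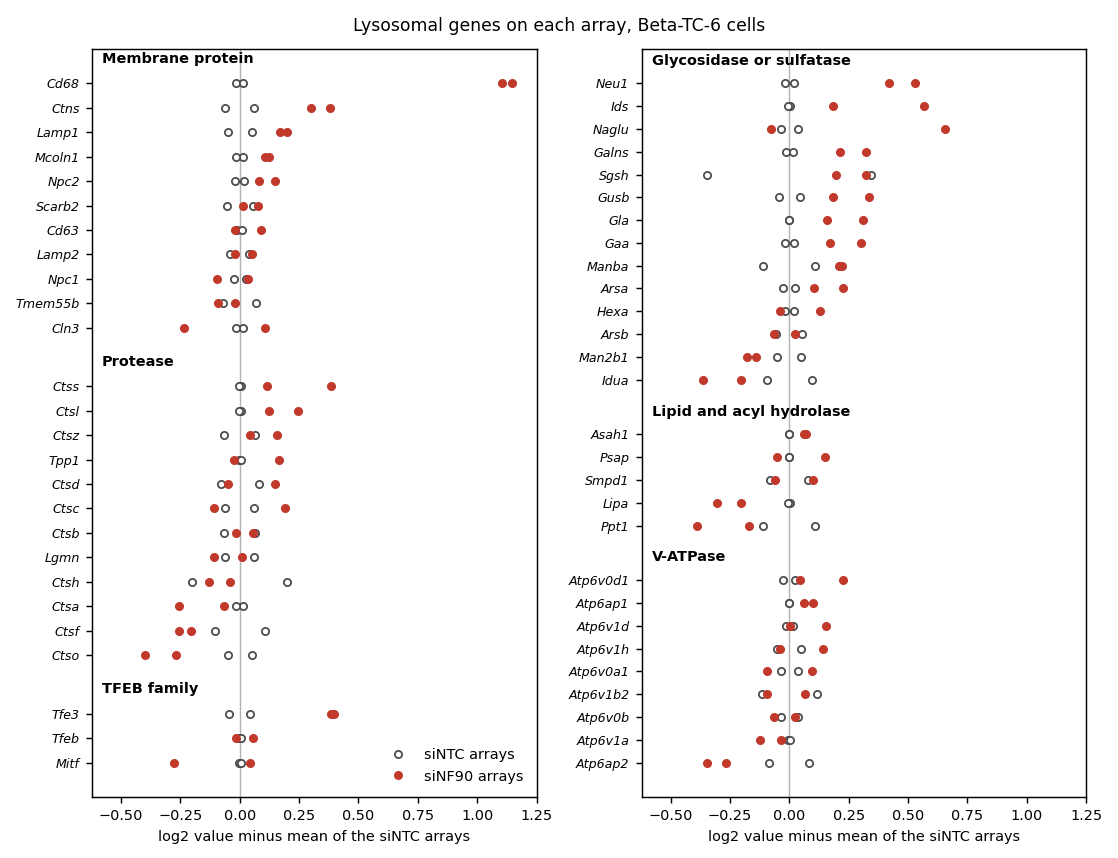
Each row is a lysosomal gene, ordered by difference within its class, and the horizontal axis is its log2 value minus the mean of the siNTC arrays. Open circles are the 2 siNTC arrays and filled circles the 2 siNF90 arrays; Cd68 stands alone near 1.1, most glycosidases and sulfatases lie to the right of 0, and the proton pump genes lie close to it apart from Atp6ap2.

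Among the membrane proteins, Cd68 was 2.18-fold higher in siNF90 and the major structural glycoproteins differed little. Cd68, a glycosylated relative of the LAMP proteins that is abundant in macrophages, stood at 3.32 and 3.35 on the siNTC arrays and at 4.44 and 4.48 on the siNF90 arrays, a difference of 1.125 ± 0.12 (log2, SE, n = 2 each). The gap between the groups was many times the gap between arrays of a group. This only describes a gene known beforehand for its difference, and the gap between arrays may be technical. Lamp1, which coats the lysosomal membrane, was at 9.08 and 8.98 in siNTC and at 9.23 and 9.2 in siNF90. The groups did not overlap, and the difference of 0.185 ± 0.12 had an adjusted p of 0.653 in limma.

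Lamp2, the related protein that serves as a receptor in chaperone-mediated autophagy, was at 8.71 and 8.63 in siNTC against 8.65 and 8.72 in siNF90. Cd63, a tetraspanin of late endosomes, was at 8.59 and 8.61, and at 8.58 and 8.69. In both genes the groups overlapped, with differences of 0.015 and 0.035. Scarb2, the receptor that carries glucocerebrosidase to lysosomes, differed by 0.045.

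The transporters divided. Ctns, which exports cystine from the lysosome, was at 6.43 and 6.55 in siNTC and at 6.79 and 6.87 in siNF90, 1.27-fold higher with a difference of 0.34 ± 0.12 (limma, adjusted p = 0.454). Mcoln1, the calcium channel of the lysosome, differed by 0.115, with the siNF90 values of 6.93 and 6.95 above 6.84 and 6.81. Npc2, the soluble carrier that hands cholesterol to Npc1, also differed by 0.115 without overlap. Npc1, which exports cholesterol through the membrane, was at 4.96 and 4.91 in siNTC against 4.84 and 4.97 in siNF90, and the groups overlapped. Cln3, the protein lost in juvenile Batten disease, was at 4.28 and 4.25 in siNTC, but at 4.03 on the first siNF90 array and 4.37 on the second. Tmem55b, a phosphoinositide phosphatase that helps to position lysosomes, differed by -0.055. Without Cd68, siNF90 was above siNTC without overlap in 4 of the 10 genes of this class and below in 0. Npc2, which is soluble, was grouped with the membrane proteins and is among the 4. The shares over genes that reached the median level were 26.3% and 21.8%.

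Cd68 is also used as a marker of macrophages, so the other myeloid markers are given beside it. Of 15 listed, 14 were measured, and 12 of these were low in both groups. Adgre1, Ptprc, Itgam, Cd14 and Lyz2, which define such cells, were all low, with values between 0.67 and 1.49. Csf1r, also low by its means, was at 1.95 on the first siNF90 array and at 1.07 on the second. None of the 14 was listed at 0. The summed linear level of the 14 was 53.0 and 53.3 on the siNTC arrays and 60.7 and 60.0 on the siNF90 arrays. Without C1qa it was 31.0 and 32.6 against 33.2 and 30.0, and the groups overlapped. With 12 of the 14 low and no measure of background, neither sum is a measure of myeloid RNA. C1qa, a subunit of the complement component C1q, was at 4.46 and 4.37 in siNTC and at 4.78 and 4.91 in siNF90. C1qb, another subunit of C1q and the only other marker of the 14 that was not low, lay the other way, at 1.97 and 1.87 in siNTC against 1.69 and 1.41 in siNF90. Of the 14 markers, 7 had a difference above 0 and 7 below. Without overlap, siNF90 was above siNTC in 2, C1qa and Spi1, and below in 2, C1qb and Fcgr3. Over all genes these shares were 21.9% and 17.9%. Spi1 was low, at 1.12 and 1.11 in siNTC and at 1.58 and 1.21 in siNF90. The part of other cells in the Cd68 values was not tested. In these bulk samples, more cells of a kind and more RNA per cell cannot be told apart. Of the 4 genes nearest to Cd68, Mpdu1 differed by 0.145, Sox15 by -0.15, Eif4a1 by 0.025 and Senp3 by -0.045.

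The proteases showed no common direction, with 7 of 12 above 0, 5 below and a median of 0.03. Ctso, a cysteine protease, was at 4.64 and 4.74 in siNTC and at 4.29 and 4.42 in siNF90, 1.26-fold lower with a difference of -0.335 ± 0.12 (limma, adjusted p = 0.459). Ctsf, another cysteine protease, differed by -0.23 ± 0.13, at 4.91 and 4.7 against 4.6 and 4.55. Ctsa, the carboxypeptidase that holds Neu1 in its active complex, was at 8.36 and 8.33 in siNTC and at 8.28 and 8.09 in siNF90. These were the 3 of 12 proteases with siNF90 below siNTC without overlap, and siNF90 was above in 2. Over all genes the share below was 17.9% and the share above 21.9%. Among genes that reached the median level these were 21.8% and 26.3%.

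Ctsb, a cysteine protease that cuts many proteins, was at 9.12 and 8.99 in siNTC against 9.04 and 9.11 in siNF90. Ctsd, the main aspartic protease, was at 8.29 and 8.13 against 8.36 and 8.16. The groups overlapped in both, and the gap between the arrays of a group exceeded the gap between the group means. Ctsl, a potent endopeptidase, was at 7.71 and 7.7 in siNTC and at 7.83 and 7.95 in siNF90, a difference of 0.185 ± 0.12 without overlap (limma, adjusted p = 0.658). Tpp1, which removes tripeptides, differed by 0.07, Ctsz by 0.1 and Lgmn, which cuts after asparagine, by -0.05, each with overlap.

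Ctss, Ctsc and Ctsh, cysteine proteases abundant in immune cells, were low. Ctss was at 1.04 and 1.03 in siNTC and at 1.42 and 1.15 in siNF90, and no fold is given at that level. Ctsc and Ctsh differed by 0.04 and -0.085 with overlap.

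The glycosidases and sulfatases had the highest median difference of the 6 classes. Of 14 measured, 11 had a difference above 0 and 3 below, with a median of 0.235, and siNF90 was above siNTC without overlap in 8 and below in 2. Among all genes that reached the median level, these shares were 26.3% and 21.8%, the median was 0.02 and the 75th percentile 0.17. No gene of the class passed limma's test, and the class was not tested as a set. The class median was 0.255 above the siNTC mean on the first siNF90 array and 0.185 above it on the second.

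Neu1, the sialidase that removes terminal sialic acid, was at 5.67 and 5.71 in siNTC and at 6.11 and 6.22 in siNF90. Both siNF90 values were higher, by 1.39-fold on average, with a difference of 0.475 ± 0.12 (limma, adjusted p = 0.374). Its partner in the complex, Ctsa, had a difference of -0.16 ± 0.13. Neu1 was higher by 0.42 to 0.53 with any single array left out.

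Enzymes that break down heparan, dermatan and keratan sulfate did not share a direction. Ids, the iduronate sulfatase, was at 6.87 and 6.86 in siNTC, and at 7.43 on the first and 7.05 on the second siNF90 array, a difference of 0.375 ± 0.16. Idua, the iduronidase that acts next in the same chain, was at 5.65 and 5.84 in siNTC and at 5.54 and 5.38 in siNF90, a difference of -0.285 ± 0.14. Neither group pair overlapped, and the adjusted p in limma was 0.503 for Ids and 0.542 for Idua. Galns, a sulfatase of keratan sulfate, differed by 0.27 ± 0.12 and Gusb, the glucuronidase, by 0.26 ± 0.13, both without overlap. Naglu, which removes N-acetylglucosamine from heparan sulfate, was at 4.8 on the first siNF90 array but 4.07 on the second, against 4.11 and 4.18 in siNTC. Sgsh, the heparan sulfamidase, was at 2.98 and 3.67 in siNTC and at 3.65 and 3.52 in siNF90. The difference of Naglu therefore rested on 1 siNF90 array, without which it was -0.075, and that of Sgsh on 1 siNTC array, without which it was -0.085. Arsb, a sulfatase of dermatan sulfate, differed by -0.02.

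Gaa, which releases glucose from glycogen, was at 7.67 and 7.71 in siNTC and at 7.99 and 7.86 in siNF90, a difference of 0.235 ± 0.12 (limma, adjusted p = 0.569). Gla, the galactosidase lost in Fabry disease, also differed by 0.235, at 5.72 on both siNTC arrays and at 5.88 and 6.03 in siNF90. Neither gene overlapped between the groups. Hexa, which degrades the ganglioside GM2, was at 7.66 and 7.7 against 7.81 and 7.64, with overlap. Manba, the beta-mannosidase, differed by 0.215 and Man2b1, the alpha-mannosidase, by -0.16, both without overlap. Arsa, which removes sulfate from sulfatide, differed by 0.165 without overlap.

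The 5 genes of lipid and acyl breakdown divided by enzyme. Lipa, the acid lipase that frees cholesterol and fatty acids from lipoproteins, was at 5.85 and 5.84 in siNTC and at 5.54 and 5.64 in siNF90, 1.19-fold lower with a difference of -0.255 ± 0.12 (limma, adjusted p = 0.533). Ppt1, which removes palmitate from proteins, was at 7.78 and 7.56 in siNTC and at 7.5 and 7.28 in siNF90, a difference of -0.28 ± 0.15. Neither overlapped, although the Ppt1 groups lay only a small step apart. The sphingolipid genes differed less. Asah1, the acid ceramidase, was at 8.34 on both siNTC arrays and at 8.41 and 8.4 in siNF90. Psap, the precursor of the saposins that present lipids to hydrolases, was at 8.44 on both siNTC arrays and at 8.59 and 8.39 in siNF90. Smpd1, the acid sphingomyelinase, differed by 0.02.

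**Figure D3:**
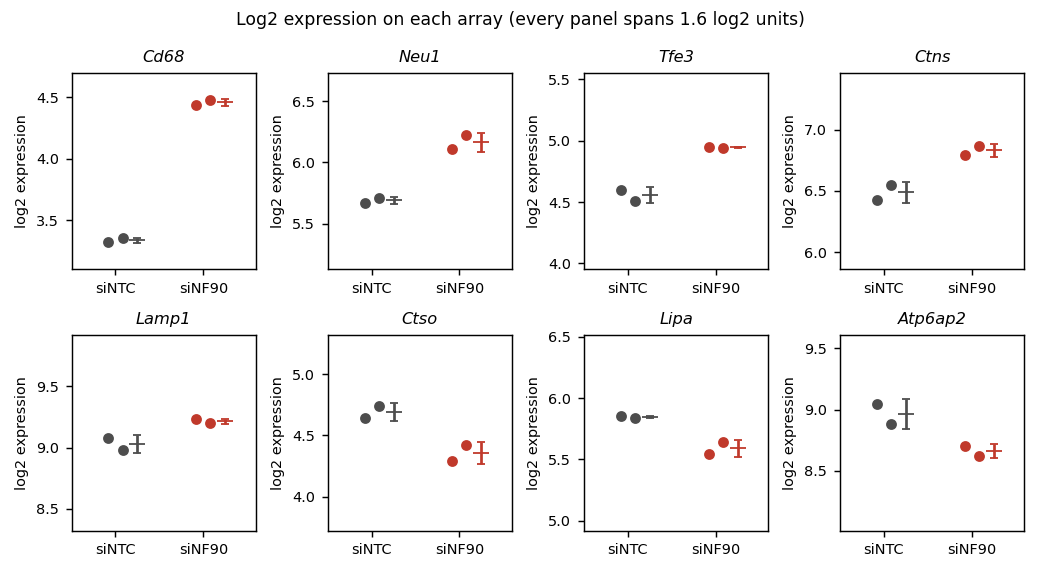
Log2 expression of 8 lysosomal genes on each array, with the 2 arrays of a group as points and the mean with SD beside them; each panel spans the same range. Cd68, Neu1, Tfe3, Ctns and Lamp1 are higher on both siNF90 arrays, and Ctso, Lipa and Atp6ap2 are lower on both.

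The proton pump held a median difference of 0 over 9 genes, 4 above and 4 below. Atp6v1a, the catalytic subunit that hydrolyses ATP, was at 7.35 and 7.36 in siNTC and at 7.32 and 7.23 in siNF90, a difference of -0.08 ± 0.12. Atp6v0d1, which joins the membrane sector to the stalk, was at 8.24 and 8.29 against 8.49 and 8.31, a difference of 0.135 ± 0.13. Neither overlapped, and each difference was about as large as its standard error or less. Atp6v0a1, Atp6v0b, Atp6v1b2, Atp6v1d and Atp6v1h, further subunits of the pump, overlapped between the groups, with differences from -0.02 to 0.08. A second probe set of Atp6v1b2 disagreed with the one used, at 4.79 and 5.03 in siNTC against 5.08 and 5.3 in siNF90.

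The accessory proteins had differences of opposite sign. Atp6ap2, an accessory subunit also known as the prorenin receptor, was at 9.05 and 8.88 in siNTC and at 8.7 and 8.62 in siNF90, 1.24-fold lower with a difference of -0.305 ± 0.13 (limma, adjusted p = 0.495). Atp6ap1, the other accessory subunit, was at 8.09 on both siNTC arrays and at 8.19 and 8.15 in siNF90. Neither overlapped.

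Among the factors that drive lysosomal genes, Tfe3 was higher in siNF90 and Tfeb and Mitf were near the median level of all genes or under it. Tfe3 was at 4.6 and 4.51 in siNTC and at 4.95 and 4.94 in siNF90, 1.31-fold higher with a difference of 0.39 ± 0.12 (limma, adjusted p = 0.415). Of the 4 genes nearest to it, Praf2 and Gripap1 differed by 0.395 ± 0.12 and 0.39 ± 0.13 without overlap, and Ccdc120 and Kcnd1 by -0.055 and 0.11 with overlap. Tfeb was low, at 1.34 and 1.35 in siNTC against 1.33 and 1.4 in siNF90. Mitf was at 1.96 and 1.97 in siNTC and at 2.01 and 1.69 in siNF90, with overlap. RNA levels do not show where these factors are in the cell.

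Of 92 other genes of the lysosome and its supply, grouped by role, 83 were measured. Of these 50 had a difference above 0, 32 below and 1 at 0, with a median of 0.07. Without overlap, siNF90 was above siNTC in 26 and below in 15, the other 42 overlapped, and 0 passed limma's test (smallest adjusted p = 0.357), while 7 higher and 1 lower had an unadjusted p under 0.05. Over all genes the shares without overlap were 21.9% and 17.9%, against 31.3% and 18.1% of the 83, and those at an unadjusted p under 0.05 were 5.87% and 4.41%. Among genes that reached the median level, as 73 of the 83 did, the shares without overlap were 26.3% and 21.8%. The median was 0 without the first siNF90 array and 0.03 without the first siNTC array.

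Among 20 other membrane and transport proteins, the median difference was 0.18. Ostm1, the partner subunit of the lysosomal chloride transporter, was at 4.34 and 4.47 in siNTC and at 5.21 and 5.11 in siNF90, a difference of 0.755 ± 0.12 (limma, adjusted p = 0.357). With the level-dependent prior, Ostm1 was the 1 gene of the 83 that passed (limma, adjusted p = 0.0463). Its second probe set was also higher on both siNF90 arrays, at 2.09 and 2 against 1.36 and 1.84 in siNTC. These values are near the median level of all genes. Tpcn1, a pore channel of endosomes and lysosomes, was at 5.24 and 5.69 in siNTC and at 6.14 and 6.08 in siNF90. Tmem192 (-0.325 ± 0.12) and Laptm4b (-0.17 ± 0.14) had the lowest differences.

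Among 15 other hydrolases and cofactors, the median was -0.045. Smpdl3a, a phosphodiesterase related to acid sphingomyelinase, was at 2.05 and 2.78 in siNTC and at 3.48 and 3.8 in siNF90, a difference of 1.225 ± 0.26 (limma, adjusted p = 0.357). Its second probe set did not share this, at 1.6 and 1.81 against 1.59 and 1.79. That probe set was low in both groups, and whether a difference could be seen at that level is not known. Plbd2 differed by 0.28 ± 0.24 with overlap. Galc, which degrades galactosylceramide, differed by -0.305 ± 0.18 with overlap, and Pla2g15, a lysosomal phospholipase, by -0.29 ± 0.12 without.

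The 13 other pump subunits had a median of 0.075. Atp6v1b1 and Atp6v1c2, with differences of 0.47 ± 0.15 and 0.45 ± 0.12, and Atp6v1f, with -0.475 ± 0.2, were all low, so no fold is given for them. Atp6v1g1, a stalk subunit, differed by -0.11 ± 0.12. The 19 genes that deliver hydrolases and place lysosomes had a median of 0.03, with the adaptors Gga2 at 0.35 ± 0.15, Gga1 at 0.34 ± 0.17 and Gga3 at -0.195 ± 0.14, and the sorting receptor Sort1 at -0.15 ± 0.13. The 16 genes of nutrient sensing had a median of 0.075. Lamtor2, a scaffold of mTORC1 on the lysosome, differed by 0.33 ± 0.15 and Rptor, which recruits mTORC1 substrates, by 0.24 ± 0.13, while Fnip2 differed by -0.195 ± 0.12 and Tfec, a relative of TFEB that was low, by -0.165 ± 0.12.

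**Figure D4:**
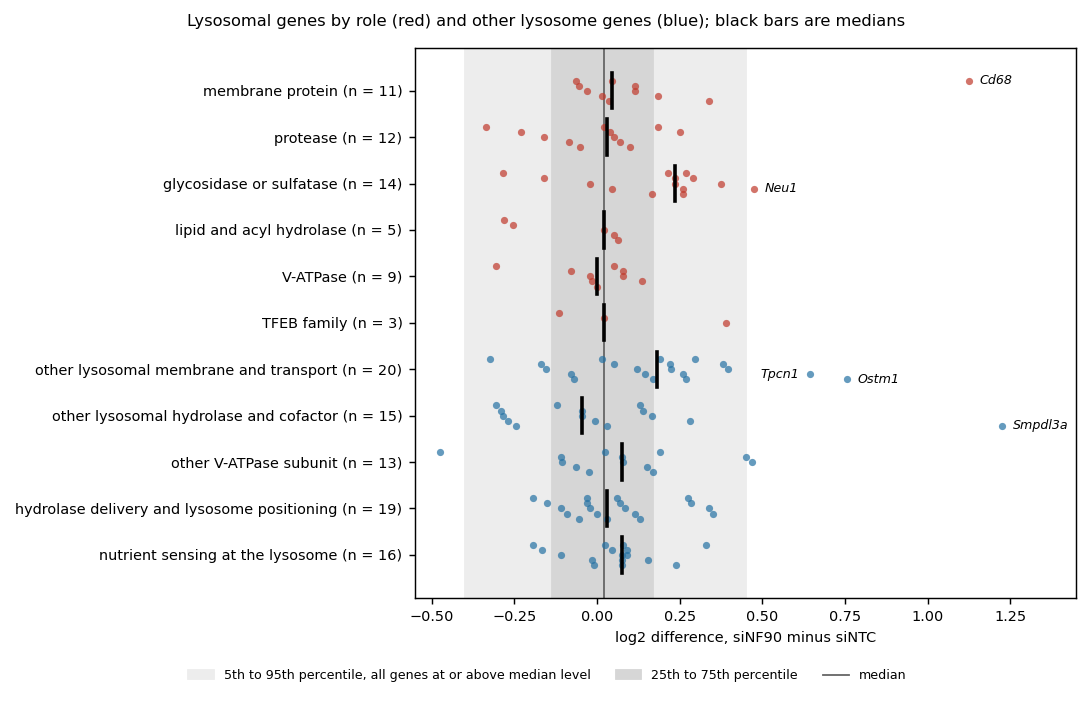
Log2 difference (siNF90 minus siNTC) of each gene, by role, for the 54 lysosomal genes (red) and 83 other lysosome genes (blue), with list medians as black bars. Grey bands give the spread of all genes that reached the median level; the medians of the glycosidases and sulfatases (0.235) and of the other membrane and transport proteins (0.18) lie right of the 25th to 75th percentile band. The labelled genes, and Atp6v1b1 at 0.47, lie right of the 95th percentile.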

How the data were processed

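The authors deposited 1 table of log2 expression values for 41345 probe sets on 4 arrays, and the submitters' processing notes name Transcriptome Analysis Console as the tool. Version, background correction and normalization: not given in the sources used here. Base 2 was inferred from the range of the values. Of the probe sets, 23521 have 1 gene symbol in the platform annotation, 1814 several and 16010 none here. The differences were fitted with limma 3.58.1 in R 4.3.3 (lmFit, eBayes without a trend, 2 residual and 3.92 prior degrees of freedom), on the values as deposited, without a filter. With 2 arrays a group, the smallest p of an exact permutation test is 0.333, so none was run. Protein sequences were not used here. The code was tested on simulated data. The number of arrays limits the precision.

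Always named were 18 genes, with those at an unadjusted p under 0.05, the highest and lowest of each class, and the 2 highest and 2 lowest of each further list. Further names were chosen after their values were seen. The members and lists were chosen with earlier results of these data known.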

Additional observations from a re-analysis of the deposited data

How the results depend on the processing

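The differences of 29 lysosomal genes were recomputed under the alternatives, though a filter on low genes removed Ctss and Tfeb. Cd68 had no test and so no call. No other call on them changed under a robust or level-dependent prior, quantile or median scaling, the filter, or averaged probe sets. With the level-dependent prior 52 of all genes passed as higher and 49 as lower. In the other settings named here 0 of all genes passed, so no call on any gene could change there. Of the further lysosome genes, Ostm1 passed with the level-dependent prior (limma, adjusted p = 0.0463 against 0.357). Leaving out an array turned the sign in 23 of all 54 lysosomal genes and in 28 of the 83 further genes. By arithmetic, such a turn can occur only where the groups overlap. The share of such turns over all genes is not given here. Naglu was at -0.075 without the first siNF90 array and Sgsh at -0.085 without the first siNTC array. Of the 29 genes, 13 turned. The difference ran for Arsb from -0.075 to 0.035, Atp6v1b2 from -0.13 to 0.1, Npc1 from -0.095 to 0.035, Lamp2 from -0.025 to 0.055, Ctsb from -0.045 to 0.085, Ctsd from -0.05 to 0.15 and Smpd1 from -0.06 to 0.1. It ran for Cln3 from -0.235 to 0.105, Hexa from -0.04 to 0.13, Psap from -0.05 to 0.15, Cd63 from -0.02 to 0.09, Tfeb from -0.015 to 0.055 and Mitf from -0.275 to 0.045. Averaged probe sets gave 0.03 for Npc1 and 0.1325 for Atp6v1b2, and their other probe sets 0.09 and 0.28, where -0.03 and -0.015 are reported. With the level-dependent prior, 10 higher and 5 lower lysosomal genes other than Cd68 had an unadjusted p under 0.05 (6.78% and 5.46% of all genes), against 3 and 1 as reported, and 1 further lysosome gene passed, Ostm1. The count of lower genes was 2 after quantile normalization and 2 with the filter, which tests fewer genes. The shares over all genes in these 2 settings are not given here. With each array centred on its median, the median difference of the 54 genes was 0.0625. With single arrays left out, that median ran from 0.0525 to 0.0725, the highest without the second siNF90 array, and the median of the 83 further genes from 0 to 0.08. Higher genes at an unadjusted p under 0.05 numbered 1 to 4 and lower ones 0. The lone array then left in a group is assumed to vary like the other group. For fits with an array left out, the shares over all genes are not given here. No conclusion is drawn from the counts of higher and lower genes in those fits. Arrays of the 2 groups with the same replicate number showed no shared deviation across genes (r = -0.02). Whether they were run as pairs is not known from this. With the replicate number as a block, the median stayed at 0.0475, and 0 genes passed. Without a measure of background, low values have only a nominal level.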

Other observations

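The probe set shared by Glb1, the beta-galactosidase, and Tmppe was at 4.57 and 4.45 in siNTC and at 4.79 and 4.52 in siNF90, with overlap. A probe set shared by Pip4p1 and Apex1 was at 5.21 and 4.99 against 5.09 and 4.93. Of the 4 genes nearest to Ctns, which had 0.34, Shpk, a sugar kinase, had a difference of -0.38 ± 0.14, at 2.58 and 2.37 in siNTC and 2.01 and 2.18 in siNF90, while Tax1bp3 had 0.125, Emc6 -0.065 and Trpv1 0.055. The 4 genes nearest to Neu1 differed by -0.105 to 0.08, with overlap. These genes were chosen after their values were seen.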
